A study of Rattus norvegicus with 59 samples.

Results

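Enpp3, Enpp1, P2ry2 and P2ry6 encode proteins of extracellular nucleotide signalling, and their RNA was followed in rat lungs for up to 18 months after inhalation of crystalline silica. The 4 genes were chosen by name, with earlier results of these data known. All 4 were found among the 2887 complete gene entries of the lung table. The lungs came from male Fischer F344 rats (F344/DuCrl) bought at 3 months of age. Silica rats breathed crystalline silica at 15 mg/m3 in a whole-body chamber for 6 h per day on 5 days, and air rats were exposed to air without silica (0 mg/m3). Lungs were taken at 6 times, 1, 3 and 6 months and then 9, 12 and 18 months after exposure, from 5 silica and 5 air rats each, except that the 9-month air group held 4. Each of the 59 libraries came from a piece of the lung of 1 rat, so the values average over all cells of that piece, and a change in the number of cells of a type cannot be told apart from a change in RNA per cell. Levels are given in FPKM, the fragments assigned to a gene scaled to its length and to the number of mapped fragments of the library, so that genes can be compared per length.

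Cells release ATP and UTP when they are stretched, stimulated or injured, and enzymes and receptors on the cell surface handle these nucleotides. Ectonucleotide pyrophosphatases cleave them, which removes the ligand of some receptors and yields pyrophosphate or phosphate and products on the way to adenosine. P2Y receptors are G protein-coupled receptors that sense them. Enpp1 makes pyrophosphate from ATP and is known as an inhibitor of mineral deposition. Enpp3, also called CD203c, hydrolyses ATP and is used as a surface marker of human basophils and mast cells, but is made by epithelia too. P2ry2 is a receptor for ATP and UTP that drives chloride and mucus secretion in airway epithelium and is also used by leukocytes. P2ry6 is a receptor for UDP that is known in macrophages and microglia.

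The 4 genes form 2 neighbouring pairs. In the order of RefSeq genes on rat chromosome 1 (assembly GRCr8), Enpp1 is the protein-coding gene next to Enpp3, and P2ry6 is the one next to P2ry2. RefSeq promoter sequences were matched for 2 of the 4 genes, Enpp3 and P2ry2, and the 250 bases before the start of each are shown 5′ to 3′, since both genes were higher in silica lungs. CG dinucleotides, the sites where promoters can be methylated, are in capitals.
Enpp3, chr1:22382739-22382988, plus strand: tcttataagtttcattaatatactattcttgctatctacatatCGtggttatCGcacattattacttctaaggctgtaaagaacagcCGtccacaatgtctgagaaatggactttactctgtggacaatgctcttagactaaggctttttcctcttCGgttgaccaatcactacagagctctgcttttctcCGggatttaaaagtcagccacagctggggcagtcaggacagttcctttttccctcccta
P2ry2, chr1:164779489-164779738, minus strand: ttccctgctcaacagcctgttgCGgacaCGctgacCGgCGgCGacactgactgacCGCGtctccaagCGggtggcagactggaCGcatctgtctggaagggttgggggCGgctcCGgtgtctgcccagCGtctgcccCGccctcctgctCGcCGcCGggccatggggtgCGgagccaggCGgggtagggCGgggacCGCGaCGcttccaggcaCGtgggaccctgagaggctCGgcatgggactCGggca

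These 2 windows differ in base composition. The Enpp3 window holds 5 CG dinucleotides and 41.6% G or C, against medians of 5 and 51.2% over 33469 RefSeq promoter windows of the same length. The P2ry2 window holds 25 CG dinucleotides and 71.2% G or C, and 90.3% of the windows hold fewer CG dinucleotides. Letters of 5 motifs were searched on both strands without counting mismatches: AP-1 (TGANTCA, in 6.34% of all windows), the cAMP response element (TGACGTCA, 1.59%), C/EBP (TTGCGNAA, 0.729%), the PU.1 core (GAGGAAGT, 2.04%) and NF-kB (6.33%). Neither window held any of them, which says only that these letters are not in these 250 bases.

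The summed FPKM of a library ranged over 12025 to 16336 once LOC102553223, the entry with the largest single value, was set aside (12818 to 38613 with it). The table covers mostly genes of chromosome 1, and genes elsewhere were not analysed here. Sequencing depth is not given by FPKM. A rough estimate from the nonzero values of rare genes put the relative depth of the libraries between 0.432 and 2.26 of the median library. A minimum of 1 FPKM in 4 or more libraries was met by 1278 entries, which were tested, and by all 4 genes described here. Averaged over the 6 times, 57.6% of the tested genes differed between silica and air at an adjusted p under 0.05 (limma, adjusted over all tested genes), 37.5% higher and 20.1% lower. Of the called genes 65.1% were higher, but 44.1% after centring each library on its median and 41.1% after quantile normalization. The directions reported for the 4 genes against air were the same under both scalings.

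One library stood apart in these genes. Silica replicate 3 at 12 months had 10.3 FPKM of Enpp3, 4.83 of Enpp1, 4.63 of P2ry2 and 1.01 of P2ry6, within the range of the air lungs of that time for each gene. Its summed FPKM of 6 macrophage and dendritic cell markers was 79.6, against 160 to 221 in the other 4 silica lungs of that time and 80.5 to 126 in the air lungs. Its 3 alveolar type 2 cell markers summed to 138 FPKM, against 219 to 318 in the other silica lungs and 136 to 166 in the air lungs. Results of the 4 genes at 12 months are therefore given with and without it. It was picked by its values in these same genes, so leaving it out enlarges the changes and narrows the spread. The results without it, and their smaller adjusted p-values, are a description and no further support.

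Enpp3 rose and Enpp1 fell in silica lungs. Averaged over the 6 times, Enpp3 rose 1.996-fold in 30 silica against 29 air lungs (log2 change 0.997 ± 0.066 SE, adjusted p = 4.96e-18 by limma). Enpp1 fell by 0.25 ± 0.026 on the log2 scale, to 0.839 times the air level (adjusted p = 7.52e-12). P2ry2 rose 1.87-fold (0.90 ± 0.063, adjusted p = 2.70e-17), and P2ry6 rose 1.30-fold (0.38 ± 0.049, adjusted p = 3.79e-09). All changes are on the log2(FPKM + 0.5) scale, which understates the change of low genes such as P2ry6. Enpp3 and P2ry2 were called higher at 6 of 6 times, P2ry6 at 4 of 6, and Enpp1 was called lower at 4 of 6. Without silica replicate 3 at 12 months the log2 changes in the mean over times were 1.04 for Enpp3, -0.26 for Enpp1, 0.94 for P2ry2 and 0.40 for P2ry6. For comparison, 3.21% of the tested genes were called higher at all 6 times. The share called at 4 of 6 times was not computed. Nor were shares computed for the counts of silica lungs beyond all air lungs of any time, or for the order of group means. How unusual those counts are among the tested genes is therefore not known. Shares of the tested genes called at single times follow with the values of each gene.

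**Figure D1:**
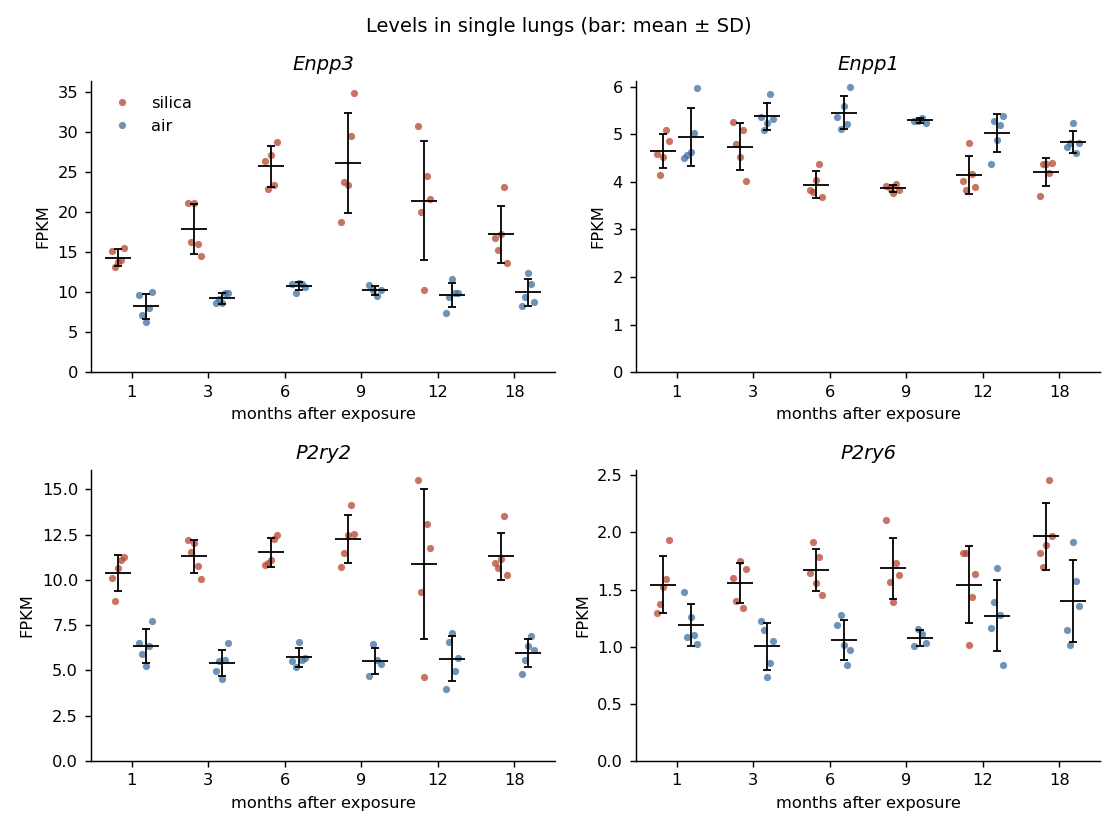
FPKM of the 4 genes (vertical axes, starting at 0) in each lung by months after exposure (horizontal axes), with silica lungs in red on the left of air lungs in blue at each time. Black bars give the mean and SD of a group of 5 lungs (4 for air at 9 months); 29 of 30 silica lungs lie above the highest air lung for both Enpp3 and P2ry2, and the exception is the 12-month lung described in the text.

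Enpp3 was the more abundant of the 2 enzymes. Its median was 20.6 FPKM in silica lungs (10.3 to 34.9, n = 30) and 9.87 FPKM in air lungs (6.26 to 12.4, n = 29), and 29 of 30 silica lungs lay above the highest air lung of any time. At 1 month Enpp3 stood at 15.1, 13.1, 13.8, 13.98 and 15.5 FPKM in the silica lungs, against 9.57, 7.17, 6.26, 7.99 and 10.02 FPKM in the air lungs. Every silica lung was above every air lung, which held for 8.06% of the tested genes in that direction. By limma the log2 change was 0.78 ± 0.16 (SE, adjusted p = 0.00123), at a time when 8.45% of the tested genes were called higher.

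At 3 months the silica lungs had 21.1, 16.3, 21.2, 16.0 and 14.5 FPKM of Enpp3, against 8.57, 9.08, 8.58, 9.87 and 9.90 FPKM in the air lungs. The groups were apart again, as in 11.0% of the genes with silica higher, with the silica lungs spread more widely than the air lungs (SD 3.10 FPKM in silica and 0.659 FPKM in air, n = 5 each). The change was 0.90 ± 0.16 (SE, adjusted p = 4.16e-05 by limma), in a comparison that called 15.9% of the tested genes higher. At 6 months Enpp3 read 26.4, 22.9, 27.1, 23.4 and 28.8 FPKM in silica lungs and 11.03, 9.90, 11.1, 11.02 and 10.6 FPKM in air lungs. Every silica lung was again above every air lung, as in 20.6% of the genes, and the log2 change was 1.22 ± 0.16 (adjusted p = 1.07e-07, 21.2% of genes called higher).

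The 9-month silica lungs had 18.8, 23.7, 23.4, 29.5 and 34.9 FPKM of Enpp3, against 10.8, 10.3, 9.46 and 10.3 FPKM in the air lungs. The silica values ranged widely but stayed above the air lungs, as they did for 16.0% of the genes, and the change was 1.28 ± 0.17 (SE, limma adjusted p = 2.12e-07, 19.5% of genes called higher). At 12 months the silica lungs had 30.7, 20.0, 10.3, 24.5 and 21.7 FPKM and the air lungs 7.36, 9.38, 11.6, 9.92 and 9.86 FPKM. Here 4 of 5 silica lungs were above all air lungs and replicate 3 was not. The change was 1.05 ± 0.16 (adjusted p = 1.15e-05, 14.6% of genes called higher), and 1.28 ± 0.14 without replicate 3 (adjusted p = 3.20e-10).

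By 18 months Enpp3 read 16.8, 15.2, 17.2, 23.1 and 13.6 FPKM in silica lungs and 8.22, 9.37, 12.4, 11.04 and 8.75 FPKM in air lungs. The lowest silica lung was close to the highest air lung, without overlap, which held for 9.23% of the genes with silica higher. Here Enpp3 changed by 0.75 ± 0.16 (SE, adjusted p = 7.41e-04 by limma, 11.8% of genes called higher). In order of the group means, Enpp3 was highest in silica at 9 months (26.1 ± 6.25 FPKM, SD, n = 5), then at 6, 12, 3, 18 and 1 months (14.3 ± 1.01), and all 6 air groups came below, from 10.7 ± 0.5001 at 6 months to 8.20 ± 1.58 at 1 month. Of the 11 steps between neighbours in this order, only the step from silica at 1 month to air at 6 months had ranges that did not overlap.

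Enpp1 moved the other way and by less. Its median was 4.16 FPKM in silica lungs (3.68 to 5.26, n = 30) and 5.23 FPKM in air lungs (4.38 to 6.00, n = 29), and 20 of 30 silica lungs were below the lowest air lung of any time. At 1 month it read 4.59, 4.15, 4.52, 5.09 and 4.86 FPKM in silica lungs and 4.51, 4.56, 4.63, 5.04 and 5.98 FPKM in air lungs. The groups overlapped, with 4 of the air lungs in the range of the silica lungs, and the log2 difference was -0.078 with an interval of -0.20 to 0.049 (95%, limma adjusted p = 0.517). At 3 months the values were 5.26, 4.80, 4.52, 5.10 and 4.01 FPKM in silica lungs and 5.36, 5.09, 5.25, 5.86 and 5.32 FPKM in air lungs. They still overlapped, with 3 of 5 silica lungs below all air lungs (-0.17 ± 0.063, SE, adjusted p = 0.0521). The 3-month difference passed the threshold after median centring (adjusted p = 0.00396) or quantile normalization (0.00314), and also when silica replicate 1, silica replicate 4 or air replicate 2 was left out (0.0279 to 0.0483).

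At 6 months Enpp1 fell to 3.83, 3.80, 4.04, 4.38 and 3.68 FPKM in silica lungs, against 5.36, 5.12, 5.59, 5.22 and 6.00 FPKM in air lungs. Every silica lung was below every air lung, which held for 4.62% of the tested genes in that direction, and the log2 change was -0.42 ± 0.063 (SE, limma adjusted p = 1.32e-06, 6.42% of genes called lower). The 9-month values were the tightest, with 3.904, 3.88, 3.76, 3.95 and 3.84 FPKM in silica lungs and 5.29, 5.28, 5.35 and 5.24 FPKM in air lungs. The means of 3.87 ± 0.0705 FPKM in silica and 5.29 ± 0.0457 FPKM in air (SD, n = 5 and 4) were far apart relative to the spread, and 8.61% of the genes had all silica lungs below all air lungs (-0.41 ± 0.067, SE, adjusted p = 6.57e-06, 11.3% of genes called lower).

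At 12 months Enpp1 read 4.01, 3.82, 4.83, 4.16 and 3.902 FPKM in silica lungs and 4.38, 5.27, 4.89, 5.19 and 5.39 FPKM in air lungs. Replicate 3 was the highest silica lung here, and the other 4 were below all air lungs. The change was -0.25 ± 0.063 (SE, limma adjusted p = 0.00267, 9.08% of genes called lower), and -0.30 ± 0.064 without replicate 3 (adjusted p = 1.82e-04). At 18 months it read 3.70, 4.38, 4.37, 4.18 and 4.39 FPKM in silica lungs and 4.73, 4.82, 5.23, 4.61 and 4.81 FPKM in air lungs. These groups were apart by a small margin, as were 1.88% of the genes in that direction (-0.19 ± 0.063, adjusted p = 0.0385, 3.52% of genes called lower). Leaving out silica replicate 1 or 4, or air replicate 1, 2, 3 or 5, ended the 18-month call (adjusted p = 0.0564 to 0.143).

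In order of the group means, all 6 silica groups of Enpp1 (4.74 ± 0.495 FPKM at 3 months to 3.87 ± 0.0705 at 9 months, SD, n = 5) came below all 6 air groups (5.46 ± 0.351 FPKM at 6 months to 4.84 ± 0.234 at 18 months). None of the 11 steps between neighbours had ranges apart.

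**Figure D2:**
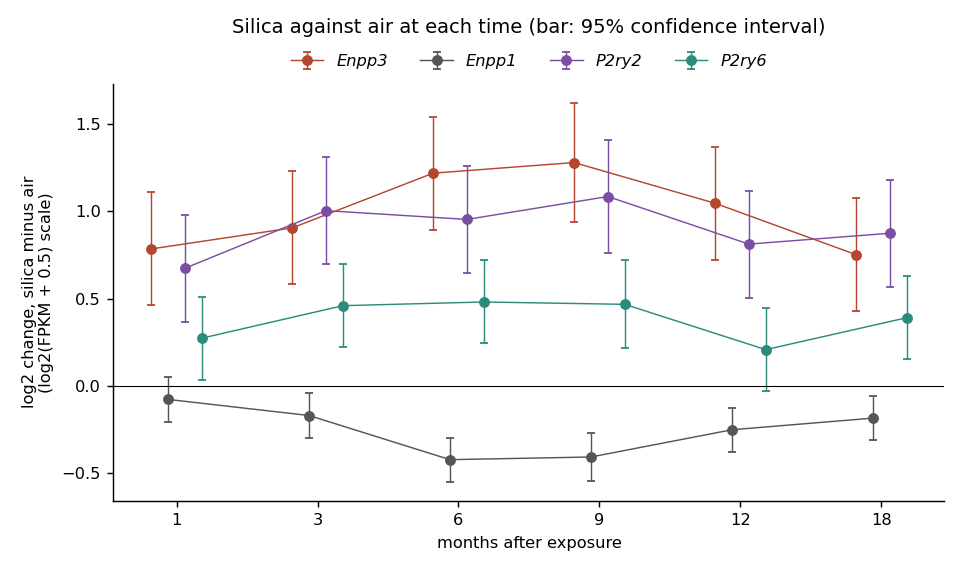
Log2 change of silica minus air on the log2(FPKM + 0.5) scale (vertical axis) by months after exposure (horizontal axis), with 95% confidence intervals from the fit of all groups. Enpp3 and P2ry2 lie above 0 at every time, Enpp1 lies below 0 with its lowest values at 6 and 9 months, and P2ry6 lies between.

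P2ry2, the ATP and UTP receptor, was the more abundant of the 2 receptors. Its median was 11.1 FPKM in silica lungs (4.63 to 15.5, n = 30) and 5.60 FPKM in air lungs (3.96 to 7.73, n = 29), and 29 of 30 silica lungs lay above the highest air lung. At 1 month it read 10.1, 8.83, 10.7, 11.1 and 11.3 FPKM in silica lungs and 6.53, 5.92, 5.23, 6.33 and 7.73 FPKM in air lungs. At 3 months it read 12.2, 11.5, 12.0, 10.8 and 10.02 FPKM in silica lungs and 4.97, 5.53, 4.52, 5.54 and 6.49 FPKM in air lungs. The groups were apart at both times, and the log2 changes were 0.67 ± 0.15 at 1 month (SE, limma adjusted p = 0.00331) and 1.00 ± 0.15 at 3 months (adjusted p = 2.06e-06). Of the tested genes, 8.06% at 1 month and 11.0% at 3 months were apart with silica higher, and 8.45% and 15.9% were called higher.

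At 6 months P2ry2 stood at 10.8, 10.9, 11.1, 12.3 and 12.5 FPKM in silica lungs, against 5.51, 5.18, 6.57, 5.60 and 5.699 FPKM in air lungs. At 9 months it stood at 10.7, 11.5, 12.5, 14.2 and 12.6 FPKM in silica lungs, against 4.71, 6.47, 5.57 and 5.36 FPKM in air lungs. No silica lung overlapped an air lung at either time, and the changes were 0.95 ± 0.15 (SE, limma adjusted p = 3.96e-06) and 1.08 ± 0.16 (adjusted p = 1.18e-06). Of the tested genes, 20.6% at 6 months and 16.0% at 9 months were apart with silica higher, and 21.2% and 19.5% were called higher. At 12 months the silica lungs had 15.5, 9.34, 4.63, 13.1 and 11.8 FPKM and the air lungs 3.96, 6.59, 7.04, 4.96 and 5.69 FPKM. Replicate 3 was lower than 4 of the 5 air lungs, while replicate 1 was the highest of all 59 lungs. The change was 0.81 ± 0.15 (adjusted p = 1.11e-04, 14.6% of genes called higher), and 1.07 ± 0.12 without replicate 3 (adjusted p = 4.37e-10).

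At 18 months P2ry2 read 10.9, 10.6, 11.1, 13.5 and 10.3 FPKM in silica lungs and 4.81, 5.59, 6.36, 6.87 and 6.11 FPKM in air lungs. The groups were apart, as were 9.23% of the genes with silica higher (0.87 ± 0.15, SE, limma adjusted p = 5.67e-05, 11.8% of genes called higher). The 6 silica means lay close together, from 12.3 ± 1.31 FPKM at 9 months to 10.4 ± 0.981 FPKM at 1 month (SD, n = 5), and so did the air means, from 6.35 ± 0.920 at 1 month to 5.41 ± 0.737 at 3 months. Neighbours in the order of means overlapped at every step except the one between the lowest silica and the highest air group.

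P2ry6, the UDP receptor, was low in all lungs. Its median was 1.64 FPKM in silica lungs (1.01 to 2.46, n = 30) and 1.14 FPKM in air lungs (0.738 to 1.92, n = 29), and only 4 of 30 silica lungs lay above the highest air lung. At 1 month it read 1.29, 1.37, 1.53, 1.59 and 1.93 FPKM in silica lungs and 1.48, 1.08, 1.26, 1.10 and 1.03 FPKM in air lungs. The groups overlapped through 1 air lung, and the difference of 0.27 had an interval of 0.035 to 0.51 (95%, limma adjusted p = 0.146).

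From 3 to 9 months the silica lungs were all above the air lungs of the same time. P2ry6 read 1.60, 1.40, 1.75, 1.34 and 1.68 FPKM in silica lungs and 1.23, 1.14, 0.738, 0.854 and 1.05 FPKM in air lungs at 3 months. At 6 months the values were 1.64, 1.92, 1.55, 1.79 and 1.45 FPKM in silica lungs and 1.19, 1.27, 1.02, 0.838 and 0.974 FPKM in air lungs. At 9 months they were 2.11, 1.57, 1.39, 1.74 and 1.63 FPKM in silica lungs and 1.00, 1.16, 1.11 and 1.03 FPKM in air lungs. The groups were apart by small margins, and the log2 changes were close to each other at 0.46 ± 0.12, 0.48 ± 0.12 and 0.47 ± 0.13 (SE, limma adjusted p = 0.00442, 0.00167 and 0.00341 at 3, 6 and 9 months). At these times 11.0%, 20.6% and 16.0% of the tested genes were apart with silica higher, and 15.9%, 21.2% and 19.5% were called higher.

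At 12 months P2ry6 read 1.82, 1.82, 1.01, 1.43 and 1.63 FPKM in silica lungs and 1.16, 1.39, 1.69, 1.28 and 0.841 FPKM in air lungs. The groups overlapped, and the difference of 0.21 had an interval of -0.031 to 0.44 (95%, limma adjusted p = 0.206). Without replicate 3 it was 0.31 ± 0.12 (SE, adjusted p = 0.0362), with the ranges still overlapping. At 18 months both groups reached their highest means, with 1.82, 1.70, 1.89, 2.46 and 1.97 FPKM in silica lungs and 1.14, 1.01, 1.92, 1.57 and 1.35 FPKM in air lungs. One air lung lay among the silica lungs (0.39 ± 0.12, adjusted p = 0.0190, 11.8% of genes called higher). Leaving out silica replicate 4, air replicate 1 or air replicate 2 ended the call (adjusted p = 0.0671 to 0.0998). All 6 silica means (1.97 ± 0.293 FPKM at 18 months to 1.54 ± 0.248 at 1 month) were above all 6 air means (1.40 ± 0.360 at 18 months to 1.002 ± 0.203 at 3 months, SD, n = 5), and no neighbours in that order had ranges apart.

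The 12-month calls rest on the estimate of spread shared by all groups. Where the 12-month groups were fitted alone, 1 of the 1278 genes was called, and adjusted p was 0.101 for Enpp3, 0.120 for Enpp1 and 0.130 for P2ry2. With 5 against 5 lungs an exact permutation test cannot give a p below 0.00794, the value of every gene whose groups are apart. After adjustment over all tested genes that smallest p became 0.0898 at 1 month, 0.0626 at 3 months and 0.0714 at 18 months. No gene passed at these times, because too few genes reached the smallest p for it to pass the adjustment. All 4 genes had an adjusted p of 0.0315 at 6 months and 0.0433 at 9 months in that test. It called 322 of the 1278 tested genes at 6 months and 234 at 9 months. Enpp3, Enpp1 and P2ry2 had an adjusted p of 0.224 at 12 months.

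The ratio of 2 genes within the same lung shows whether their responses to silica differed. For Enpp3 over Enpp1 the log2 ratio averaged 1.53 ± 0.0946 in silica lungs and 0.664 ± 0.221 in air lungs at 1 month (SD, n = 5 each). At 6 months it was 2.56 ± 0.198 in silica lungs and 0.916 ± 0.0912 in air lungs, and at 18 months 1.89 ± 0.312 in silica lungs and 0.955 ± 0.206 in air lungs. The silica and air lungs were apart at every time except 12 months, where silica replicate 3 lay among the air lungs. The differences were 0.86 ± 0.11, 1.07 ± 0.10, 1.64 ± 0.098, 1.69 ± 0.16, 1.30 ± 0.31 and 0.94 ± 0.17 from 1 to 18 months (SE), with exact two-sided permutation p of 0.00794 or 0.0159 at each time (adjusted over 18 tests, 0.0204 to 0.0286). Without silica replicate 3 the 12-month difference was 1.58. Over all times the difference was 1.25 and had the smallest p that 100000 permutations within times could give (1e-05).

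The receptor genes also differed from each other. The log2 ratio of P2ry2 over P2ry6 was higher in silica than in air lungs at all 6 times, by 0.40 ± 0.14 at 1 month, 0.54 ± 0.12 at 3 months, 0.47 ± 0.13 at 6 months, 0.62 ± 0.13 at 9 months, 0.60 ± 0.24 at 12 months and 0.48 ± 0.092 at 18 months (SE). The adjusted p was 0.0204 to 0.0357 at 5 times and 0.0714 at 12 months (exact permutation), and 1e-05 over all times. The 0.5 added to each value shrinks the change of the low P2ry6 more than that of P2ry2, which enlarges this difference. With a pseudocount of 0.1 in place of 0.5 the differences were 0.36, 0.38 and 0.54 at 1, 6 and 9 months. Their adjusted p was 0.0918, 0.0649 and 0.0571 (exact permutation). The test over all times was run with 0.5 only. Leaving out 1 library ended the 1-month call in 7 of 10 cases (silica replicate 1, 3 or 4, or air replicate 1, 2, 3 or 4), and the 12-month ratio passed the threshold without silica replicate 3 (adjusted p = 0.0440).

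Enpp3 and P2ry2 differed less from each other in their response. The log2 ratio of Enpp3 over P2ry2 was higher in silica by 0.27 ± 0.079 at 6 months and 0.23 ± 0.088 at 12 months (SE, exact permutation adjusted p = 0.0357 and 0.0440). At 1, 3, 9 and 18 months the differences were 0.11 ± 0.069, -0.099 ± 0.081, 0.19 ± 0.16 and -0.12 ± 0.091 (adjusted p = 0.152 to 0.270). Over all times the difference was 0.097, positive at 4 of 6 times (permutation adjusted p = 0.0303). When 1 library was left out, the 6-month call was lost in 7 of 10 cases (silica replicate 1, 2, 3 or 5, or air replicate 2, 3 or 5). The 12-month call was also lost in 7 of 10 cases (silica replicate 1, 2 or 3, or air replicate 1, 2, 3 or 5), and the 1-month ratio passed without air replicate 1 (adjusted p = 0.0440).

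**Figure D3:**
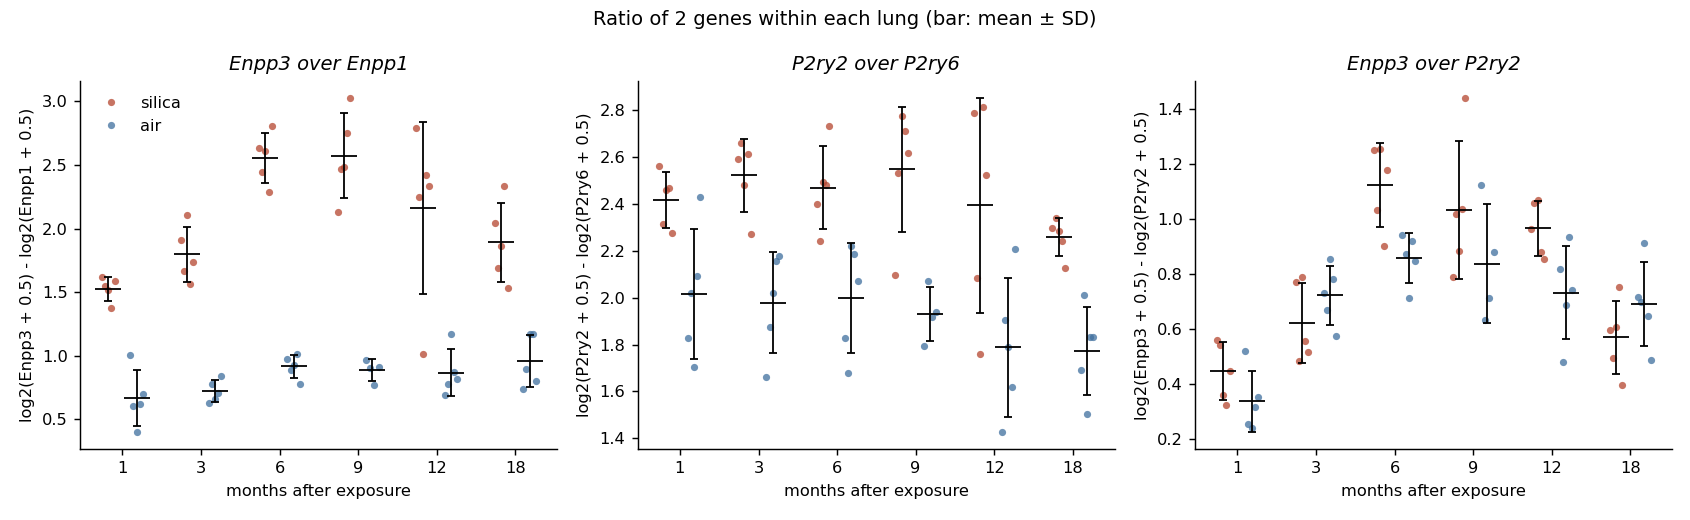
Log2 ratio of 2 genes within each lung (vertical axes, log2(FPKM + 0.5) differences, not starting at 0) by months after exposure, with silica lungs in red on the left of air lungs in blue and bars for mean and SD. Enpp3 over Enpp1 separates silica from air at 5 of 6 times, P2ry2 over P2ry6 is higher in silica at all 6 times by 0.40 to 0.62, and Enpp3 over P2ry2 overlaps between silica and air at every time.

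Whether the silica response itself changed with time was tested across the 6 times. The F test of limma called 1.33% of the tested genes and none of these 4 (adjusted p = 0.419 for Enpp3, 0.0721 for Enpp1, 0.752 for P2ry2 and 0.739 for P2ry6), with 1 of 4, Enpp1, at an unadjusted p under 0.05 (0.00152). The Enpp1 test passed the threshold with library weights (adjusted p = 0.00331) and when any of 5 libraries was left out, which were silica replicate 2 and air replicate 5 at 1 month, silica replicate 5 at 3 months, silica replicate 4 at 6 months and silica replicate 3 at 12 months (0.0143 to 0.0479). Tests between one time and the next called 0.156% of the genes from 1 to 3 months, 0.235% from 3 to 6 months and 0.00% at the 3 later steps, and none of the 4 genes (limma, 1 of 4 at an unadjusted p under 0.05 from 3 to 6 months and 0 of 4 at the other steps). The largest step of Enpp1 was from 3 to 6 months (-0.25 ± 0.089, SE, unadjusted p = 0.00669, adjusted p = 0.266), and with library weights it was called (-0.27, adjusted p = 0.0337). Between 18 months and 1 month 0.156% of the genes and none of the 4 were called (0 of 4 at an unadjusted p under 0.05). The response of Enpp3 differed by -0.032, with an interval of -0.49 to 0.42 (95%), and that of P2ry2 by 0.20, with an interval of -0.23 to 0.63, so changes of that size were not detectable with 5 rats per group.

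Air lungs gave the levels of the 4 genes at each time without silica. Age and any difference in handling between the times cannot be told apart in them. Air at 18 months against 1 month called 21.8% of the tested genes and none of these 4, and the F test over the 6 air groups called 28.9% and none of them (limma, 0 of 4 at an unadjusted p under 0.05 in either test). The log2 differences between 18 months and 1 month were 0.27 for Enpp3, -0.021 for Enpp1, -0.085 for P2ry2 and 0.16 for P2ry6 (SE 0.16, 0.063, 0.15 and 0.12). The F test of Enpp1 over the air groups had an adjusted p of 0.168, but 0.0440 after median centring, 0.0339 after quantile normalization, 0.0307 with library weights and 0.0340 without air replicate 5 at 1 month.

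Other genes of the pathway were few in the table. Of 66 genes for enzymes, transporters and receptors of extracellular nucleotides and adenosine, 9 were present and 5 were tested, the 4 above and Art2b. Art2b, an ADP-ribosyltransferase of rat T cells that uses extracellular NAD, averaged 1.56 FPKM in silica and 1.76 FPKM in air lungs, a log2 difference of -0.13 ± 0.081 (SE, limma adjusted p = 0.169). It was lower in air lungs at 18 months than at 1 month (-0.85 ± 0.20, adjusted p = 0.00132). Abcc6, a transporter whose activity in liver supplies extracellular ATP for Enpp1, averaged 0.552 FPKM in silica and 0.699 FPKM in air lungs and was too low to be tested. Art1, Art5 and Slc28a1 averaged at most 0.0276 FPKM in either group.

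Of 29 genes for steps after Gq-coupled receptors, 3 were in the table. Arrb1, beta-arrestin 1, which desensitizes such receptors, fell by 0.12 ± 0.025 in the mean over times (SE, limma adjusted p = 3.85e-05), with 35.9 FPKM in silica and 39.2 FPKM in air lungs. It was called lower at 9 months (-0.20 ± 0.064) and 12 months (-0.23 ± 0.060, and -0.27 ± 0.062 without silica replicate 3). Prkcb, a protein kinase C, differed by -0.0030 ± 0.040 (5.27 FPKM in both groups) and Stim1, a calcium sensor of the endoplasmic reticulum, by 0.019 ± 0.024. The median change of the 3 was -0.0030, against 0.032 over all tested genes.

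The genes beside the 2 pairs were examined as well. The 4 nearest genes with the RefSeq biotype protein-coding on each side of each member, 16 in all besides the members, gave 14 further tested genes, of which 5 rose and 3 fell in the mean over times, with a median log2 change of 0.013 (0.032 over all tested genes). These shares are close to the 37.5% higher and 20.1% lower of all tested genes, so the count says nothing particular of the neighbours. Arg1, arginase, which lies 2 genes from Enpp3, rose by 0.94 ± 0.075 (SE, limma adjusted p = 2.27e-15) and was called higher at all 6 times. Med23, between Arg1 and Enpp3, differed by -0.0088 ± 0.023, and Ctgf, the matricellular growth factor gene on the other side of Enpp1, by 0.023 ± 0.045. Next to the receptor pair, Fchsd2, on one side, rose by 0.11 ± 0.036 and, on the other side past Arhgef17, Relt, a TNF receptor family gene, rose by 0.23 ± 0.054. The other calls were Stard10 and Stx7, which rose by 0.13 and 0.098, and Akap7, Atg16l2 and Epb41l2, which fell by 0.14, 0.12 and 0.10.

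Markers of several cell types moved with the 4 genes. Of all tested genes, 37.5% were higher and 20.1% lower in the mean over times, and 3.21% were higher at all 6 times. Both neutrophil markers in the table, of 10 listed, rose at all 6 times, and their summed FPKM were apart between silica and air except at 12 months, where they were apart without silica replicate 3 (36.2 to 55.2 in the other silica lungs and 10.2 to 18.4 in air). At 6 months these sums did not overlap either (44.5 to 53.6 in silica and 10.3 to 17.1 in air). All 6 macrophage and dendritic cell markers in the table, of 13 listed, rose in the mean over times, by a median of 0.80 (168 to 181 FPKM in silica and 78.2 to 95.6 FPKM in air at 6 months). At 1 month 3 of the 6 were called higher, where 8.45% of all tested genes were. Their sums rest mostly on Tyrobp, which averaged 110 FPKM in silica and 73.6 FPKM in air lungs. All 3 alveolar type 2 markers in the table, of 9 listed, rose at all 6 times, by a median of 0.64 in the mean (238 to 271 FPKM in silica and 145 to 153 FPKM in air at 6 months). Of 3 airway markers, 2 rose in the mean and the third was not called (-0.20 ± 0.16, SE). The sums of all 3 were 144 to 156 FPKM in silica and 92.5 to 107 FPKM in air at 6 months. Both endothelial markers fell in the mean. Their sums were apart at 6 months (60.3 to 70.8 FPKM in silica and 76.5 to 89.5 FPKM in air) and at 9 months, and overlapped at 1, 3, 12 and 18 months. At 12 months they were apart without silica replicate 3 (58.0 to 68.6 FPKM in the other silica lungs and 79.7 to 91.1 FPKM in air). Of 2 T and NK cell markers 1, Nkg7, fell (-0.38 ± 0.060, SE), and the sums overlapped except at 6 months (9.99 to 13.3 FPKM in silica and 13.5 to 16.8 FPKM in air). None of the 3 B cell markers was called (limma, 0 at an unadjusted p under 0.05 in the mean), and their sums overlapped at all 6 times. The 21 markers in the table were above 0 in all libraries, while none of the 13 basophil and mast cell markers or the 8 fibroblast and smooth muscle markers were analysed here. The part of cell makeup in the changes of the 4 genes was not tested.

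**Figure D4:**
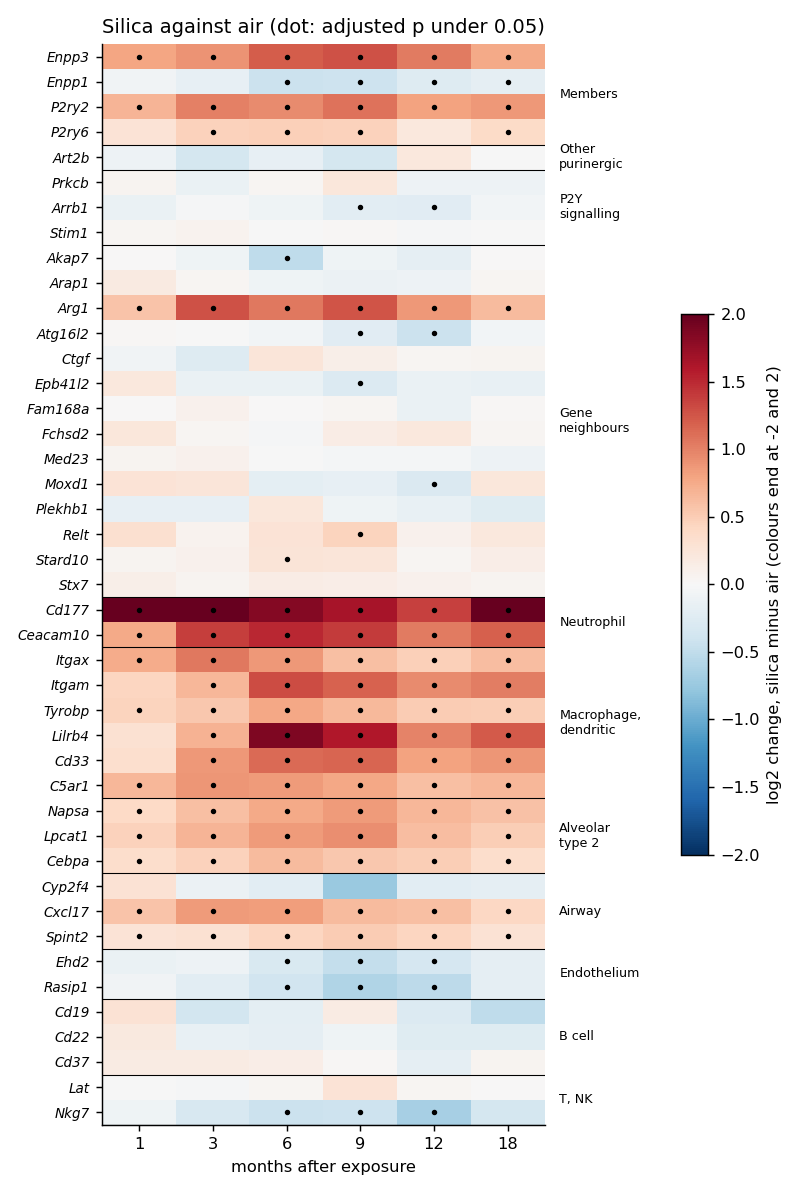
Log2 change of silica minus air (colour, red higher and blue lower in silica) for the 4 genes and the tested genes of each list (rows) by months after exposure (columns), with a dot where the limma adjusted p was under 0.05. Enpp3 and P2ry2 share the red of the neutrophil, macrophage and alveolar type 2 rows and of 2 of the 3 airway rows. Enpp1 shares the blue of the endothelial rows, and Nkg7 and Arrb1 also lie below 0 at every time. Among the gene neighbours only Arg1 has a dot at all 6 times.

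The genes whose patterns were most like those of the 4 were taken from 945 tested genes with a gene symbol. Over the 12 group means, in which the 6 silica and 6 air groups stand apart, Enpp3 was most like Napsa (Pearson r = 0.988), the protease of alveolar type 2 cells that processes surfactant protein B, then C5ar1 (0.980), the receptor of complement C5a, and Fxyd5 (0.977), a regulator of the sodium pump. P2ry2 was most like Ldha (0.979), lactate dehydrogenase A, Stard5 (0.979), a sterol-binding protein, and Pepd (0.978), a dipeptidase. Enpp1 was most like Scube2 (0.969), Syne1 (0.936), a nuclear envelope protein, and Pde2a (0.920), a cyclic nucleotide phosphodiesterase. P2ry6 was most like Kcnk6 (0.962), a potassium channel, Aen (0.958) and Shkbp1 (0.956).

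Likeness within groups, over the 59 deviations of a lung from its group mean, removes the mean difference between silica and air. Differences between the lungs of a silica group remain, and these could be larger than in air. At 12 months Enpp3 had an SD of 7.46 FPKM in silica and 1.53 FPKM in air lungs. Whether the likeness reflects lungs that differed in their response to silica was not tested. Enpp3 followed Lpcat1 (Pearson r = 0.889), an enzyme of surfactant lipid synthesis, Sod2 (0.868), mitochondrial superoxide dismutase, and Ftl1 (0.843), ferritin light chain. P2ry2 followed Lpcat1 (0.863), Napsa (0.854) and Enpp3 itself (0.828). The value for Enpp3 and P2ry2 was 0.720 without silica replicate 3 at 12 months and 0.690 without the 12-month silica group. Enpp1 followed no gene above 0.503 (Sash1) and P2ry6 none above 0.539 (Sf3b5), and Enpp3 and Enpp1 had an r of 0.017, or 0.282 without that library. The values and order of Lpcat1, Sod2, Ftl1, Napsa, Sash1 and Sf3b5 include that library and were not recomputed without it. How far these values rest on that library was therefore not tested. Both genes of each pair were read from the same library and share its scaling.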

How the data were processed

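A piece of lung from each of 59 rats was sequenced as stranded total RNA, depleted of ribosomal RNA according to the labels' protocols. The submitters' processing notes list Cufflinks 2.1.1, TopHat2 2.0.9, Bowtie2 2.2.9, Trimmomatic 0.35 and bcl2fastq 2.19 without saying what each did. The genome build and annotation are not given in the sources used here. FPKM were deposited by the authors, with 1 column per library. The table held 2888 entries, and the last, which had only 31 values, was left out. Of the names, 2061 matched RefSeq (GRCr8) symbols or synonyms, 2046 of them on chromosome 1.

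Entries with 1 FPKM or more in 4 or more libraries (1278) entered one limma fit of log2(FPKM + 0.5) over all 12 groups, with a trend in the variance and 47 residual degrees of freedom (limma 3.58.1, R 4.3.3). Benjamini-Hochberg adjusted p-values cover every tested gene of a comparison, and a call is an adjusted p under 0.05. Ratios within a lung were tested by exact two-sided permutation, or by 100000 permutations within times. The fit was tested on simulated data with independent normal noise of the same spread in every group. Groups of unequal spread and shifts of a whole library were not simulated. Because FPKM hold no read counts, no count model was used. Libraries within a group were not identical, and each came from its own rat. The members and gene lists were chosen with earlier results of these data known. Named genes are the members, the tested pathway, signalling and called neighbour genes, and the 3 genes most like each member by Pearson r. Markers are given by list, with Tyrobp and Nkg7 also named. Alternatives were other pseudocounts, filters and scalings, library weights, no trend, fits of single times, exact permutation, and leaving out libraries or times. Plots were drawn with matplotlib 3.10.9.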

Additional observations from a re-analysis of the deposited data

Results flagged for a closer look

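P2ry2 in silica replicate 4 at 18 months stood at 13.5 FPKM, far from the other 4 silica lungs of that time (10.3 to 11.1 FPKM), with a gap of 0.729 of the group's range where 0.710 is the limit for 5 lungs. It was the only one of 48 groups of values flagged in this way, and chance flags about 1 in 20. In the same lung Enpp3 (23.1 FPKM) and P2ry6 (2.46 FPKM) were also the highest of their group.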

How the results depend on the processing

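The directions of the 4 genes against air, at each time and in the mean over times, held under all alternatives. Of the results that answer a comparison, 389 of 418 kept their direction and side of the threshold and none reversed, while among changes of the response between times 179 of 186 did, 6 reversed and 1 was newly called (Enpp1 6 minus 3 months with library weights, -0.27, adjusted p = 0.0337). With the exact permutation test, the following were no longer called at 1 month (Enpp3 0.78, P2ry2 0.67), 3 months (Enpp3 0.90, P2ry2 1.00, P2ry6 0.46), 12 months (Enpp3 1.05, P2ry2 0.81, Enpp1 -0.25) and 18 months (Enpp3 0.75, P2ry2 0.87, P2ry6 0.39, Enpp1 -0.19). Its adjusted p was 0.0898, 0.0626, 0.224 and 0.0714 at these times (0.144 for P2ry6 at 18 months). At 1, 3 and 18 months too few genes reached its smallest possible p (0.00794) for that p to pass the adjustment. The test called 0 genes at 1, 3, 12 and 18 months, where limma called 113, 233, 302 and 196. Fits of 1 time alone had the same effect at 12 months (Enpp3 1.05, Enpp1 -0.25, P2ry2 0.81) and at 18 months (Enpp1 -0.19, adjusted p = 0.0636; P2ry6 0.39, 0.0831), and without the filter on low values Enpp1 at 18 months had an adjusted p of 0.0524 (-0.19). Enpp1 at 3 months passed with a filter of FPKM 5 (-0.17), median centring (-0.26) or quantile normalization (-0.27). The F test of the Enpp1 response between times passed with library weights (adjusted p = 0.00331), and that of Enpp1 in air with centring (0.0440), quantile normalization (0.0339) or weights (0.0307). With a pseudocount of 0.1, P2ry2 over P2ry6 no longer passed at 1 month (0.36), 6 months (0.38) and 9 months (0.54), nor Enpp3 over P2ry2 at 12 months (0.22). Changes between times that were not called turned sign: P2ry6 6 minus 3 months (-0.0070 with weights), P2ry6 9 minus 6 months (0.0083 with centring, 0.018 with quantile normalization, 0.015 with weights), P2ry2 18 minus 12 months (-0.073 with weights) and Enpp3 18 minus 1 month (0.00014 with centring). The filter of FPKM 5 left P2ry6 untested. The cause of these shifts was not tested.

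Leaving out 1 library at a time kept 998 of 1041 results that answer a comparison (1 reversed) and 444 of 472 changes of the response between times (28 reversed). The values ranged from -0.21 to -0.12 for Enpp1 at 3 months, 0.11 to 0.31 for P2ry6 at 12 months, -0.20 to -0.14 for Enpp1 and 0.31 to 0.48 for P2ry6 at 18 months, and -0.049 to 0.044 for Enpp1 in air, 18 months minus 1 month, which turned sign without air replicate 5 at 1 month. Changes of the response ranged from -0.032 to 0.088 (P2ry6) and -0.11 to 0.0061 (P2ry2) for 6 minus 3 months, from -0.051 to 0.17 (Enpp3), -0.017 to 0.050 (Enpp1) and -0.080 to 0.040 (P2ry6) for 9 minus 6 months, from -0.38 to 0.0032 (Enpp3) for 12 minus 9 months, from -0.20 to 0.21 (P2ry2) for 18 minus 12 months, and from -0.14 to 0.054 (Enpp3) for 18 minus 1 month. The adjusted p of the F tests of Enpp1 ranged from 0.0143 to 0.135 for the response and from 0.0340 to 0.279 in air. P2ry2 over P2ry6 ranged from 0.32 to 0.50 at 1 month and 0.50 to 0.76 at 12 months, and Enpp3 over P2ry2 from 0.082 to 0.16, 0.23 to 0.32 and 0.17 to 0.28 at 1, 6 and 12 months. The number of genes called moved to 44 and 66 of 113 at 1 month without air replicate 2 or silica replicate 5, to 195, 198 and 457 of 302 at 12 months without silica replicate 1, 4 or 3, and to 112 of 196 at 18 months without silica replicate 4. Among alternatives, library weights gave 198 genes at 1 month, 536 at 6 months (353 in the fit used), 153 in the F test of the response (17) and 30 for each of the first 2 steps between times; median centring gave 65 at 1 month, a fit of 1 time gave 1 at 12 months and 130 at 18 months, and exact permutation gave 234 of 393 at 9 months. No paired analysis was possible because the titles give each rat a number of its own and the groups share none.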
